A study of Mus musculus with 18 samples.

Results

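Mitochondria burn pyruvate and fatty acids through a shared set of enzymes, and 38 mouse genes that encode them were followed here from step to step. They were chosen by symbol as the genes of pyruvate entry (6 genes), the tricarboxylic acid cycle (12 genes), the carnitine shuttle (4 genes), β-oxidation (13 genes) and the electron transfer flavoprotein (3 genes). All 38 were found among the 25209 gene symbols listed for inguinal white adipose tissue (iWAT) and among the 24825 listed for the cultures. The study measured polyadenylated RNA in wild-type (WT) mice and in NFIA-Tg mice, which carry a transgene for NFIA, a DNA-binding protein of the nuclear factor I group. The 6 groups of 3 samples were iWAT, cultures at day 0 and cultures at day 7, each from WT and from NFIA-Tg. The cultures were grown from stromal-vascular cells of the inguinal depot, and day 0 and day 7 are the labelled days of their time course. Confluent cells received 0.5 mM isobutylmethylxanthine, 125 nM indomethacin, 1 µM dexamethasone, 850 nM insulin, 1 nM triiodothyronine (T3) and 1 µM rosiglitazone for 48 hours. They were then kept in insulin, T3 and rosiglitazone at the same doses. The sources used here do not give the promoter that drives the transgene or the age of the mice. They also do not say whether replicates were separate animals or separate cultures, so a p-value here reflects the spread of the 3 samples and this spread may be technical in part.

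Pyruvate from glycolysis enters the mitochondrion and is oxidised by the pyruvate dehydrogenase complex, which the kinase PDK4 switches off, or is carboxylated by pyruvate carboxylase to refill the cycle. Long-chain fatty acids reach the matrix as carnitine esters. The outer-membrane enzyme CPT1 makes the ester in the step that malonyl-CoA inhibits, a carrier moves it inward and CPT2 releases the acyl-CoA. Each round of β-oxidation then runs a dehydrogenation, a hydration, another dehydrogenation and a thiolytic cleavage, and the acetyl-CoA enters the tricarboxylic acid cycle at citrate synthase. In thermogenic fat these pathways supply the electrons whose energy is released as heat. White fat also runs pyruvate carboxylase and the first reactions of the cycle to export citrate for fatty acid synthesis.

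Values are FPKM, fragments counted per length of transcript and per depth of library, so that levels of different genes can be set side by side within a sample. In iWAT the length that was divided by is not stated, which limits such comparisons between genes there. Changes are differences on the log2(FPKM + 1) scale ± SE, which understate the change of low genes. A gene is called higher or lower where limma gave a Benjamini-Hochberg adjusted p under 0.05 over all genes tested. The iWAT and culture tables were made differently, so levels are not compared between tissue and cultures. The cultures held 16772594 to 28625625 recovered reads per library, and the depth of the iWAT libraries is unknown. Nfia was checked first. It stood at 3.73 to 4.19 FPKM in WT iWAT against 99.6 to 166 in NFIA-Tg iWAT, and at 6.3 to 6.51 against 11.3 to 12.5 at day 0. At day 7 it was 12 to 13 FPKM in WT and 6.44 to 7.32 in the libraries labelled NFIA-Tg, which goes against that label, so every culture direction below is between labelled groups. The 8 adipocyte markers summed to 26401 to 38181 FPKM in iWAT and to 24177 to 28977 FPKM at day 7, but to only 8.41 to 24.9 FPKM at day 0, where 6 of them were under 1 FPKM in all 6 libraries. The day 0 samples carry the label adipocytes without those markers.

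In sum over the 38 genes, the pathway stood higher in NFIA-Tg iWAT and far higher at day 7 than at day 0. The 3 WT iWAT libraries summed to 3825, 4681 and 4422 FPKM, and the NFIA-Tg ones to 5570, 6216 and 6581 FPKM, a ratio of means of 1.42. At day 0 the WT sums were 1188, 1192 and 1188 FPKM, and those of libraries labelled NFIA-Tg were 1163, 1192 and 1202 FPKM, which overlap. At day 7 the WT sums were 7651, 7490 and 7236 FPKM, and those labelled NFIA-Tg were at 9154, 8891 and 8850 FPKM, a ratio of 1.20 with no overlap. As a share of all FPKM, the 38 genes took 0.942% in WT and 1.33% in NFIA-Tg iWAT, 0.328% and 0.327% at day 0, and 1.82% and 2.08% at day 7. In these bulk samples a higher share of cells that express a gene cannot be told apart from more RNA per cell.

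**Figure D1:**
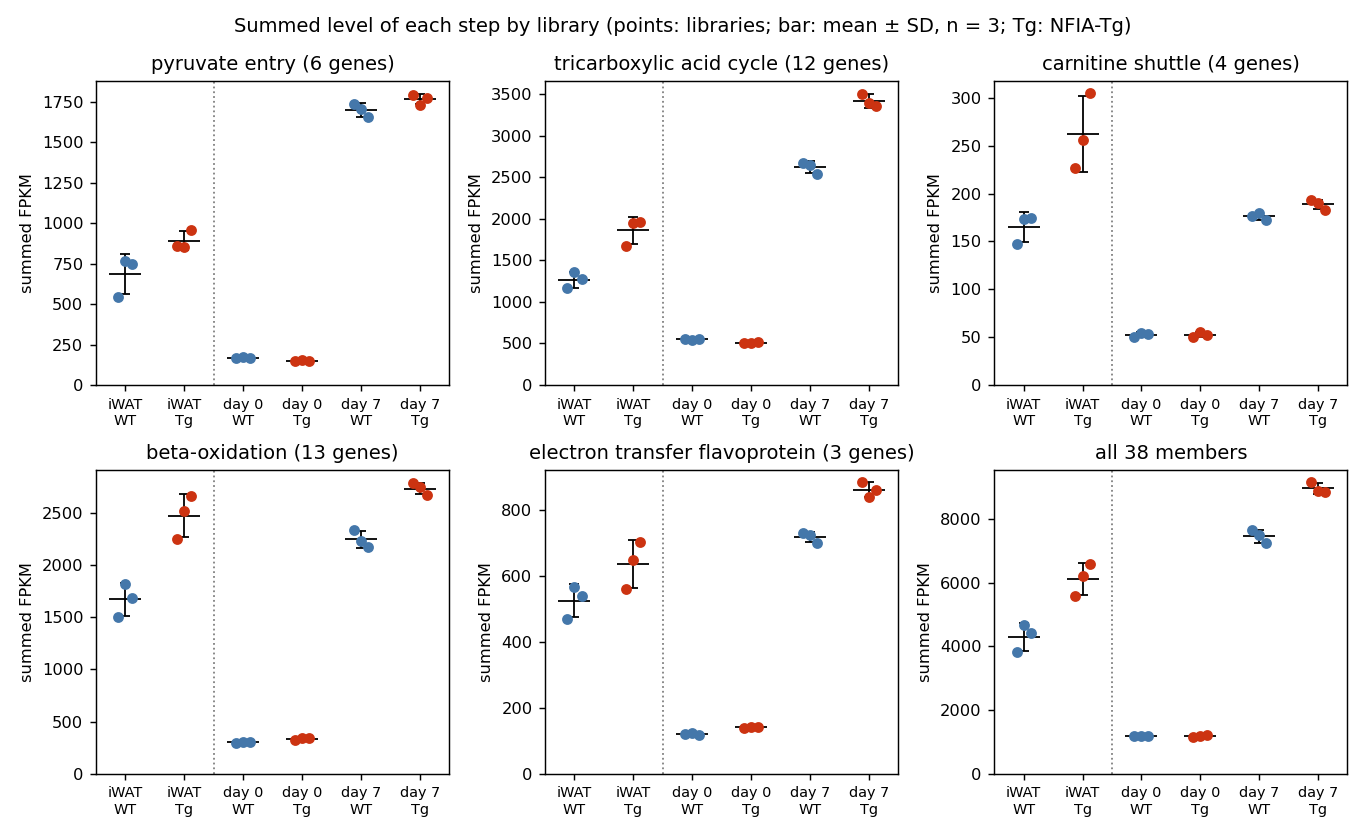
Summed FPKM of the members of each step (y axis, linear from 0) in each of the 18 libraries by group (x axis), with points for libraries and bars for mean ± SD (n = 3); the dotted line separates tissue from cultures, whose levels are not comparable. In iWAT the cycle sums to 1163 to 1359 FPKM in WT and 1678 to 1958 in NFIA-Tg, while at day 0 every step lies far below its day 7 level.

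Steps differed in how much of the sum they held. The cycle genes were the largest group at day 7, with 2538 to 2675 FPKM in WT and 3359 to 3508 in the libraries labelled NFIA-Tg, followed by β-oxidation with 2169 to 2334 and 2671 to 2780 FPKM. In iWAT β-oxidation was the largest group and summed to 1503 to 1817 FPKM in WT and 2246 to 2655 FPKM in NFIA-Tg. The carnitine shuttle was the smallest step in each group, at 147 to 174 FPKM in WT iWAT and 227 to 305 in NFIA-Tg iWAT. Single members ranged widely. Mdh2, the malate dehydrogenase that closes the cycle, was among the 3 most abundant members in every group. Cpt1b, the muscle-type CPT1, was the least abundant in every group, with a mean of 3.75 FPKM in WT iWAT and 0.781 FPKM in WT cultures at day 7.

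The promoters of 4 members on which the results below turn are shown for their letters. They are the 250 bases before the RefSeq transcription start on build GRCm38.p6, with the short motif bound by the nuclear factor I family, TTGGC on either strand, in capitals. Cpt1a lies at chr19:3323051-3323300 on the plus strand and had the largest fall from WT to labelled NFIA-Tg at day 7.
Cpt1a: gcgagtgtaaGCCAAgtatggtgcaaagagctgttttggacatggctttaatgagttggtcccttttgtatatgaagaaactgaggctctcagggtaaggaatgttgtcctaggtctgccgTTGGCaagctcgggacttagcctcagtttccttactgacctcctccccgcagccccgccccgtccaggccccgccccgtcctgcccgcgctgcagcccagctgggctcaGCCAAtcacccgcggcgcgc
Sucla2 lies at chr14:73552536-73552785 on the plus strand and had the largest rise from WT to labelled NFIA-Tg among the cycle genes at day 7.
Sucla2: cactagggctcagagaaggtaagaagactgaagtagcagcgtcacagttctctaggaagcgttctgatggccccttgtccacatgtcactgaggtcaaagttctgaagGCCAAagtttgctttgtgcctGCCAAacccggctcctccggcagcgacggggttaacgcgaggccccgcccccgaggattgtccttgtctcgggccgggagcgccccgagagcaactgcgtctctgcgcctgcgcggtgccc
Acot2 lies at chr12:83987611-83987860 on the plus strand and had the largest rise from WT to labelled NFIA-Tg of all members at day 7.
Acot2: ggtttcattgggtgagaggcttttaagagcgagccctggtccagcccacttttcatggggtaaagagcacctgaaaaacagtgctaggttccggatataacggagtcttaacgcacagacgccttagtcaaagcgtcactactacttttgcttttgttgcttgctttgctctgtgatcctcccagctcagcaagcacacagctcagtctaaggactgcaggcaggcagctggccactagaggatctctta
Hadhb lies at chr5:30155003-30155252 on the plus strand, between its own start and that of Hadha on the other strand, 273 bases away, so the 300-base windows of the 2 genes share 228 bases.
Hadhb: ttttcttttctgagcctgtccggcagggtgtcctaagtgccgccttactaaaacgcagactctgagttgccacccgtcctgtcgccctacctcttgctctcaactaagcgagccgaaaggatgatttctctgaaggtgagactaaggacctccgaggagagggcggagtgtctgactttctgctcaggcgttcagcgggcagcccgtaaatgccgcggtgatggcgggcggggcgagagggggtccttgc
The motif occurred 3 times before Cpt1a, with first bases at −240, −129 and −20 from the start, and 2 times before Sucla2, at −142 and −121. It did not occur in the stretches shown for Acot2 and Hadhb. In the windows of 300 bases, from 250 before to 50 after the start, RefSeq held 40 windows for 34 of the 38 members, and 28 of the 40 (70%) held the motif against 46.7% of all 32851 windows. Of the motifs in member windows 36% were part of a CCAAT box (here ATTGGC, or GCCAAT on the other strand), against 26.8% over all windows. Windows with a motif outside such a box were 55% of the members' and 37.6% of all. The element of oestrogen-related receptors, TCAAGGTCA on either strand, was in 0 of the 40 windows and in 0.423% of all. The direct-repeat element of peroxisome proliferator-activated receptors and the nuclear factor I palindrome were in 0 of the 40 and in 0.0396% and 0.0365% of all. These are matches of letters, with no measurement of binding.

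In iWAT, most members stood higher in NFIA-Tg than in WT and none was called lower. Of the 38 genes 22 were called higher, against 5.96% of all 12396 genes tested, and 0 lower, against 5.44%. At an unadjusted limma p under 0.05, 31 were higher and 1, Pcx, was lower. Of the 38 estimates 36 were above 0, with a median log2 change of 0.57 beside 0.05 over all genes tested. The 3 NFIA-Tg values lay above the 3 WT values in 29 members, against 20.5% of all genes. By step, 3 of 6 genes were called higher in pyruvate entry, 9 of 12 in the cycle, 1 of 4 in the carnitine shuttle, 7 of 13 in β-oxidation and 2 of 3 in the electron transfer flavoprotein. Leaving out WT replicate 3 gave 8, leaving out NFIA-Tg replicate 2 gave 7 and leaving out NFIA-Tg replicate 3 gave 12. Among all genes tested, those called higher fell as well, from 739 to 317, 285 and 375 in that order. Each of these fits holds fewer samples, so whether the count depended on a particular library was not tested. With no filter on low genes 13 were called. The call of 6 members held under all 18 alternatives tried, and these were Pdha1, Idh3b, Suclg2, Acadl, Echs1 and Eci1.

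**Figure D2:**
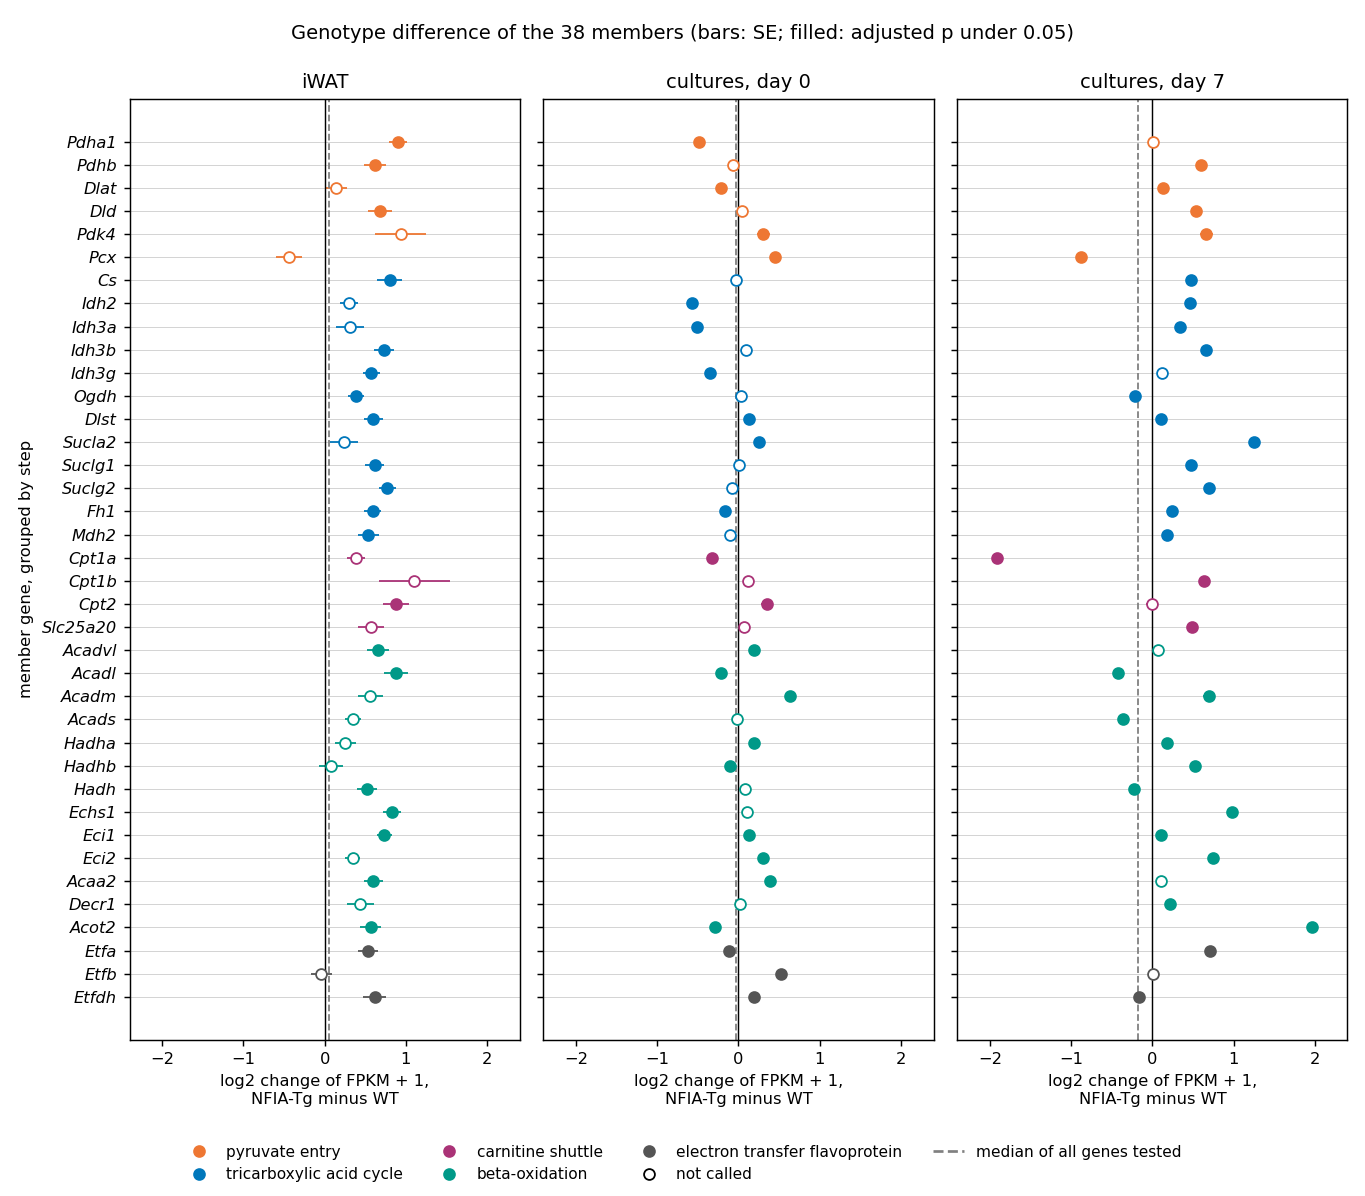
Log2 change of FPKM + 1 (x axis) of each of the 38 members (y axis, coloured by step) between NFIA-Tg and WT in iWAT, at day 0 and at day 7; bars are SE, filled points were called and the dashed line is the median of all genes tested. In iWAT 36 of 38 points lie right of 0, at day 0 called points lie on both sides, and at day 7 Acot2 (1.97) and Cpt1a (−1.91) lie farthest out.

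At the entry of pyruvate, Pdha1, which encodes the catalytic E1 alpha subunit of pyruvate dehydrogenase, stood at 76.8, 91.4 and 81.5 FPKM in WT iWAT and at 143, 163 and 165 FPKM in NFIA-Tg. All NFIA-Tg values lay above all WT values, and the change was 0.91 ± 0.11 (limma adjusted p = 0.00275). Pdhb, the E1 beta subunit, rose by 0.62 and Dld, the dihydrolipoamide dehydrogenase shared with the 2-oxoglutarate complex, by 0.68, while Dlat, the E2 acetyltransferase, did not pass (0.14, 95% interval −0.23 to 0.52). Pdk4, the kinase that inactivates the complex, was at 86.7, 175 and 163 FPKM in WT and at 315, 171 and 324 FPKM in NFIA-Tg. Its NFIA-Tg replicate 2 lay within the WT range, and the change of 0.94 ± 0.32 did not pass (adjusted p = 0.0940). Pcx, pyruvate carboxylase, was at 224, 316 and 333 FPKM in WT and at 192, 232 and 212 FPKM in NFIA-Tg. It had the lowest estimate of all members and its groups overlapped (−0.44 ± 0.16, adjusted p = 0.122).

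In the cycle, Cs, the citrate synthase of the first reaction, was at 126, 181 and 163 FPKM in WT iWAT and at 243, 306 and 268 FPKM in NFIA-Tg, with no overlap (0.80 ± 0.15, adjusted p = 0.0153). Of the 3 subunits of the NAD-dependent isocitrate dehydrogenase, Idh3b (0.73) and Idh3g (0.57) rose, and the catalytic Idh3a did not pass (0.31, interval −0.17 to 0.79). Idh2, the NADP-dependent enzyme, did not pass either (0.30, interval −0.00 to 0.60). Ogdh and Dlst, the E1 and E2 parts of the 2-oxoglutarate dehydrogenase complex, rose by 0.39 and 0.60. Succinyl-CoA synthetase pairs the common alpha subunit Suclg1 with either the ATP-forming beta subunit Sucla2 or the GTP-forming Suclg2. Suclg2 was at 15.3, 18.3 and 16.4 FPKM in WT and at 28, 29 and 30.2 FPKM in NFIA-Tg, a change of 0.77 ± 0.10 (adjusted p = 0.00395). Suclg1 rose by 0.62, whereas Sucla2, at 54.8, 82 and 67.4 FPKM in WT and at 66.9, 88.6 and 84.7 FPKM in NFIA-Tg, overlapped between the groups (0.24, interval −0.22 to 0.70). Fh1, fumarase, rose by 0.59, and Mdh2 rose from 241, 269 and 277 to 338, 379 and 432 FPKM (0.54 ± 0.13, adjusted p = 0.0310). The call of Ogdh was lost under each other scaling tried, and that of Mdh2 with median-of-ratios scaling.

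In the carnitine shuttle, the 3 NFIA-Tg values exceeded the 3 WT values for all 4 genes, and 1 gene was called. Cpt2, which releases acyl-CoA in the matrix, was at 49.7, 69.9 and 62 FPKM in WT iWAT and at 92, 116 and 128 FPKM in NFIA-Tg (0.88 ± 0.16, adjusted p = 0.0132). Cpt1a, the liver-type CPT1, was at 47.9, 50.6 and 54.3 FPKM in WT and at 67.9, 60.2 and 73.1 FPKM in NFIA-Tg, and missed the threshold (0.39 ± 0.11, adjusted p = 0.0537). Slc25a20, the carnitine-acylcarnitine carrier, missed it as narrowly (0.57 ± 0.16, adjusted p = 0.0548). Cpt1b was at 4.33, 0.85 and 6.06 FPKM in WT and at 6.19, 8.05 and 9.59 FPKM in NFIA-Tg, with the widest spread of any member in WT (1.10 ± 0.44, adjusted p = 0.142). Skeletal muscle markers, which share this isoform, summed to 185, 124 and 197 FPKM in WT iWAT and to 24.9, 15.7 and 47.3 FPKM in NFIA-Tg. Of the 4 of 9 that could be tested, 1 was called lower (Acta1, −2.64), and their part in the members' levels was not tested.

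In β-oxidation, the acyl-CoA dehydrogenases of the first reaction differ in the chain length they take. Acadl, the long-chain enzyme, was at 151, 206 and 189 FPKM in WT iWAT and at 293, 347 and 365 FPKM in NFIA-Tg (0.88 ± 0.15, adjusted p = 0.00876), and Acadvl, the very-long-chain enzyme, rose by 0.66. Acadm, the medium-chain enzyme and one of the most abundant members, was at 208, 284 and 285 FPKM against 339, 379 and 422 FPKM and missed the threshold (0.56 ± 0.15, adjusted p = 0.0522). Acads, the short-chain enzyme, also missed it (0.35, adjusted p = 0.0659). Echs1, the short-chain enoyl-CoA hydratase, was at 136, 162 and 134 FPKM in WT and at 236, 256 and 275 FPKM in NFIA-Tg (0.83 ± 0.12, adjusted p = 0.00444). Eci1, an isomerase for unsaturated chains, rose by 0.73, Acaa2, a thiolase, by 0.60, Acot2, an acyl-CoA thioesterase, by 0.57, and Hadh, the short-chain hydroxyacyl-CoA dehydrogenase, by 0.52. Hadha and Hadhb, the 2 subunits of the trifunctional protein that share the promoter interval shown above, did not pass (0.26, interval −0.11 to 0.62, and 0.08, interval −0.34 to 0.50). Eci2 and Decr1, which also serve unsaturated chains, did not pass (0.35 and 0.44). Among the carriers that take electrons from the dehydrogenases, Etfa (0.53) and Etfdh (0.62), the alpha subunit and the ubiquinone oxidoreductase, rose. Etfb, the beta subunit, was at 239, 290 and 290 FPKM against 232, 275 and 291 FPKM, which overlap (−0.04, interval −0.41 to 0.33).

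Beside these, markers of mitochondrial content outside the pathways summed to 415 to 434 FPKM in WT iWAT and 476 to 555 FPKM in NFIA-Tg, with 2 of 8 called higher. Thermogenic adipocyte markers summed to 40.1, 108 and 72.2 FPKM in WT and to 789, 740 and 1054 FPKM in NFIA-Tg, with Ucp1 at most 4.08 FPKM. Endothelial markers summed to 482 to 592 FPKM against 320 to 403 FPKM, with 4 of 6 called lower. Lymphocyte markers summed to 32.1 to 40.7 FPKM against 16.5 to 25.8 FPKM, with 1 of 4 tested lower, and dividing-cell markers to 6.07 to 9.16 FPKM against 2.79 to 3.66 FPKM, with 1 of 3 lower. The sums of adipocyte and macrophage markers overlapped between the genotypes. The part of these markers in the members' changes was not tested. Other enzymes of the same pathways were called in 1 direction as well, though their estimates lay on both sides of 0. Of 25 further genes of pyruvate and the cycle, 7 were called higher and 0 lower. In this list 19 estimates were above 0, and the lowest was −0.86. The 7 called included Pdk2 (0.97), another inhibitory kinase of pyruvate dehydrogenase, and Sdhb (0.78) of succinate dehydrogenase. Mpc1 (0.72) of the mitochondrial pyruvate carrier and Idh1 (0.65), the cytosolic isocitrate dehydrogenase, were also among them. Of 21 tested further genes of mitochondrial fatty acid oxidation, 7 were higher and 0 lower, including Acacb (1.19), whose product makes the malonyl-CoA that inhibits CPT1, Pcca (0.76) and Pccb (0.65), the subunits of propionyl-CoA carboxylase, and Acadsb (0.70), a branched short-chain dehydrogenase. Of 12 genes of peroxisomal oxidation limma called 0, with 2 higher and 0 lower at an unadjusted p under 0.05 and a median change of 0.01. Of 9 tested regulators, 4 were higher, among them Ppara (0.85), a receptor for fatty acids, Sirt3 (0.64), a mitochondrial deacetylase, and Esrra (0.53), an oestrogen-related receptor. The other, Ppargc1a, a coactivator of mitochondrial genes, was at 0.556, 0.756 and 0.458 FPKM in WT and at 2.89, 1.97 and 1.16 FPKM in NFIA-Tg, and was tested only because the latter reached 1 FPKM. In WT iWAT 3 of the 10 regulators were under 1 FPKM in all libraries. Those of them that were tested passed the filter only through NFIA-Tg, so the count of regulators called is not read as a result.

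At day 0 the members split between higher and lower in the cultures labelled NFIA-Tg. Limma called 13 higher, against 28.1% of all 12553 genes tested, and 11 lower, against 34.9%, which is near the background in both directions. The median change of 0.04 lay beside −0.03 over all genes. In pyruvate entry 2 were higher and 2 lower of 6, in the cycle 2 and 4 of 12, in the shuttle 1 and 1 of 4, in β-oxidation 6 and 3 of 13, and among the electron transfer genes 2 and 1 of 3. Day 0 and day 7 were fitted together, so each culture comparison uses the spread of all 4 culture groups. The replicates lay close together here, with a median coefficient of variation over members of 2.89% and 3.52% in the 2 groups, and small changes passed.

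The largest falls at day 0 were in genes of the pyruvate and isocitrate dehydrogenases. Idh2 was at 72.9, 68.2 and 71.9 FPKM in WT cultures and at 47.6, 45.7 and 49.2 FPKM in those labelled NFIA-Tg (−0.57 ± 0.04, adjusted p = 2.66e-07). Idh3a was at 21.4, 22.7 and 21.8 FPKM against 14.7, 15.5 and 15.1 FPKM (−0.51 ± 0.04, adjusted p = 2.17e-07). Pdha1 was at 75.3, 75 and 72.6 FPKM against 52.9, 53.7 and 51.7 FPKM (−0.49 ± 0.04, adjusted p = 2.17e-07). In these 3 genes every labelled NFIA-Tg value lay below every WT value. Idh3g was at 44.5, 43.1 and 42.9 FPKM against 33.2, 33.7 and 34.5 FPKM (−0.35), and Cpt1a was at 20.9, 21.4 and 21.7 FPKM against 16.4, 17.8 and 16.4 FPKM (−0.32). Acot2 (−0.29), Acadl (−0.21), Dlat (−0.21), Fh1 (−0.17), Etfa (−0.11) and Hadhb (−0.10) were lower by less. Mdh2, the most abundant member at day 0, was at 134, 130 and 136 FPKM and at 124, 120 and 128 FPKM and did not pass (−0.10, interval −0.21 to 0.01).

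The higher genes at day 0 were led by Acadm, at 17.7, 18.3 and 18.8 FPKM in WT cultures and at 27, 29.5 and 30.6 FPKM in those labelled NFIA-Tg (0.64 ± 0.07, adjusted p = 6.88e-06). Etfb was at 51.7, 51.3 and 45.5 FPKM against 68.9, 72.3 and 72.6 FPKM (0.52 ± 0.06, adjusted p = 5.10e-06). Pcx was at 9.67, 9.89 and 10.7 FPKM against 14.3, 13.5 and 14.4 FPKM (0.45 ± 0.05, adjusted p = 6.64e-06). None of these overlapped between the genotypes. Acaa2 was at 25.2, 29 and 27.8 FPKM against 32.2, 39.7 and 36.9 FPKM (0.39). Pdk4 was at 8.87, 9.86 and 9.48 FPKM against 10.7, 13 and 11.9 FPKM (0.30). Both were separated between the genotypes, and Cpt2 (0.35), Eci2 (0.30), Sucla2 (0.25), Acadvl (0.20), Hadha (0.19), Etfdh (0.19), Dlst (0.13) and Eci1 (0.13) were also higher. Cpt1b, with only 2 to 17 reads per library at day 0, was at 0.0278 to 0.0859 FPKM and 0.116 to 0.205 FPKM and did not pass in the fit to log2(FPKM + 1) (0.12, limma adjusted p = 0.108). It was called higher in 4 of 17 alternatives, with pseudocount 0.1, no filter, TPM scaling and voom on recovered reads (1.35, adjusted p = 0.0116). It entered the tests only because the 3 day 7 libraries labelled NFIA-Tg reached 1 FPKM. Transcripts of dividing cells summed to 139 to 142 FPKM in WT and 47.4 to 51.9 FPKM in those labelled NFIA-Tg at day 0, with 4 of 4 called lower. Adipocyte markers summed to 8.41 to 10.6 FPKM against 16.3 to 24.9 FPKM, with 3 of 7 tested higher, and macrophage markers to 8.67 to 9.41 FPKM against 13.1 to 15.2 FPKM, with 3 of 3 higher. Of the 8 adipocyte markers 6 were under 1 FPKM in all day 0 libraries of each genotype. Those of them that were tested passed the filter only through day 7, so the adipocyte count is not read as a result. Markers of mitochondrial content summed to 440 to 451 FPKM against 375 to 387 FPKM, with 1 of 8 higher and 4 lower. The part of these in the members' changes was not tested. Of the other pathway genes at day 0, 11 were higher and 7 lower of 25 for pyruvate and the cycle, with Pdk1, a kinase of pyruvate dehydrogenase, at −1.06 and Idh1 at 0.74. For fatty acid oxidation 8 were higher and 10 lower of 21, and for peroxisomal oxidation 7 higher and 1 lower of 12, led by the thiolase Acaa1b (1.40) and the transporter Abcd2 (1.31). Of 10 regulators 3 were higher and 2 lower, with Pparg, the receptor that drives adipocyte formation, at 1.79. In each genotype 4 of the 10 were under 1 FPKM in all day 0 libraries, so this count is not read as a result.

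From day 0 to day 7 the members rose almost without exception. In WT cultures 38 of 38 were called higher, against 46.2% of all genes tested, and 0 lower, against 35.4%. In those labelled NFIA-Tg 37 were higher, against 45.7%, and 1 was lower, against 41.5%. Without Cpt1b the counts were 37 of 37 in WT, and 36 higher and 1 lower in NFIA-Tg. The median change was 2.44 in WT and 2.68 in NFIA-Tg, beside 0.09 and 0.05 over all genes. The summed FPKM of the 38 genes rose 6.27-fold in WT and 7.56-fold in NFIA-Tg. Among steps the ratio of sums was highest for pyruvate entry (10.1 and 11.7) and lowest for the carnitine shuttle (3.34 and 3.58). In WT the mean sum of pyruvate entry went from 168 to 1699 FPKM, of which Pcx alone went from 10.1 to 617 FPKM. A ranking without Pcx is not given. Adipocyte markers were called higher for 7 of 7 tested in both genotypes. At day 0, however, 6 of the 8 were under 1 FPKM in all libraries of each genotype. Those of them that were tested passed the filter only through day 7, so this count is not read as a result. Preadipocyte and fibroblast markers were called lower for 5 of 6 in WT and 6 of 6 in NFIA-Tg, and their sum went from 4765 to 4944 FPKM to 1038 to 1171 FPKM in WT and from 5149 to 5806 FPKM to 235 to 320 FPKM in NFIA-Tg. Markers of mitochondrial content were higher for 8 of 8 in WT and 7 of 8 in NFIA-Tg. The part of these markers in the members' changes was not tested.

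Pcx rose most in WT, from 9.67, 9.89 and 10.7 FPKM to 637, 637 and 576 FPKM (5.80 ± 0.05, limma adjusted p = 1.17e-16), and became the most abundant member. In the cultures labelled NFIA-Tg it rose from 14.3, 13.5 and 14.4 FPKM to 332, 344 and 330 FPKM (4.48 ± 0.05). Acadm, the next in WT, went from 17.7, 18.3 and 18.8 FPKM to 316, 270 and 271 FPKM (3.89), and in NFIA-Tg from 27, 29.5 and 30.6 FPKM to 498, 453 and 432 FPKM (3.94). Idh3a went from 21.4, 22.7 and 21.8 FPKM to 314, 323 and 329 FPKM in WT (3.82). In NFIA-Tg it had the largest change of all members, from 14.7, 15.5 and 15.1 FPKM to 398, 406 and 422 FPKM (4.67). Pdhb (3.64 in WT and 4.31 in NFIA-Tg) and Hadhb (3.35 and 3.97) followed. The smallest rises in WT were those of Cpt1a (0.25), Acot2 (0.70), Cpt1b (0.75), Idh2 (0.84) and Suclg2 (0.84). Pdk4 rose by 2.82 in WT and 3.18 in NFIA-Tg. Cpt1a was the exception: it went from 20.9, 21.4 and 21.7 FPKM to 23.6, 26.8 and 26.5 FPKM in WT, and from 16.4, 17.8 and 16.4 FPKM down to 6, 6.34 and 5.86 FPKM in those labelled NFIA-Tg (−1.34 ± 0.05, adjusted p = 5.11e-11). The WT rise of Cpt1a did not pass with TPM scaling (0.08, adjusted p = 0.234) or quantile normalization (0.08, adjusted p = 0.195). Of the other genes of the pathways, 21 of 25 for pyruvate and the cycle were higher in each genotype, and 20 of these were shared. For fatty acid oxidation 18 of 21 were higher in each, with 16 shared. Acsl1, an acyl-CoA synthetase, changed by 7.07 in WT and 4.54 in NFIA-Tg. 

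**Figure D3:**
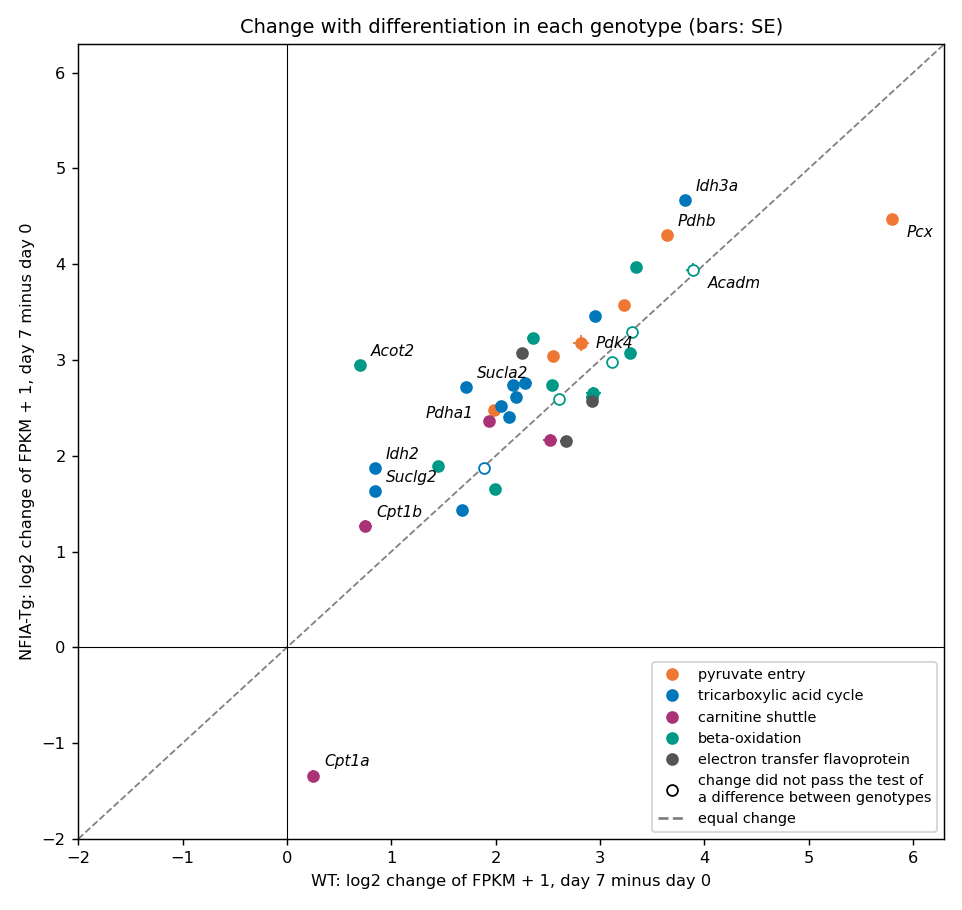
Log2 change of FPKM + 1 from day 0 to day 7 in WT (x axis) and in the cultures labelled NFIA-Tg (y axis) for the 38 members, coloured by step, with SE bars on both axes; filled points passed the test of a difference between the genotypes and the dashed line marks equal change. Points above the line, such as Acot2 (0.70 and 2.95), changed more in NFIA-Tg, and Cpt1a lies below 0 in NFIA-Tg alone.

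At day 7, most members were higher in the cultures labelled NFIA-Tg than in WT, with a few well below. Limma called 25 higher, against 29.8% of all genes tested, and 7 lower, against 51.1%, where most genes were called in 1 direction or the other. The median member change was 0.23, beside −0.17 over all genes. In pyruvate entry 4 were higher and 1 lower of 6, in the cycle 10 and 1 of 12, in the shuttle 2 and 1 of 4, in β-oxidation 8 and 3 of 13, and among the electron transfer genes 1 and 1 of 3. Without Cpt1b, whose entry into the test depended on the NFIA-Tg libraries, 24 of 37 were higher and 7 lower, and in the shuttle 1 and 1 of 3. With median-of-ratios scaling, which moves the median of all genes from −0.17 to −0.06, 30 members were higher and 4 lower, and 4578 of all genes were higher and 5414 lower in place of 3746 and 6409. There the lower calls of Ogdh, Hadh and Etfdh were lost, while the lower calls of Cpt1a, Pcx, Acadl and Acads held under all 19 alternatives.

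In pyruvate entry at day 7, the carboxylase was lower and most of the dehydrogenase genes were higher. Pcx was at 637, 637 and 576 FPKM in WT and at 332, 344 and 330 FPKM in those labelled NFIA-Tg, so that all NFIA-Tg values lay below all WT values (−0.88 ± 0.05, adjusted p = 4.36e-09). Pdhb, of the dehydrogenase, was at 412, 409 and 390 FPKM in WT and at 643, 592 and 601 FPKM (0.60 ± 0.04, adjusted p = 5.69e-08). Its partner in the same E1 enzyme, Pdha1, was at 301, 289 and 300 FPKM and at 298, 289 and 306 FPKM, which overlap (0.00, interval −0.08 to 0.09). Dld rose by 0.53 and Dlat by 0.13, the latter not with TPM scaling or quantile normalization. Pdk4 was at 73.5, 72.6 and 70.7 FPKM in WT and at 117, 101 and 127 FPKM in those labelled NFIA-Tg (0.66 ± 0.08, adjusted p = 6.56e-06).

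In the cycle, Sucla2 had the largest change, from 91.7, 89.1 and 93.2 FPKM in WT to 228, 207 and 219 FPKM in those labelled NFIA-Tg (1.25 ± 0.04, adjusted p = 3.80e-11). Suclg2 was at 23.3, 23.1 and 22.1 FPKM against 39.1, 37 and 37.3 FPKM (0.70 ± 0.05, adjusted p = 1.91e-08), and the common subunit Suclg1 rose by 0.48. In both genes every value labelled NFIA-Tg lay above every WT value. Cs, the most abundant member in the NFIA-Tg cultures, was at 546, 547 and 523 FPKM against 766, 739 and 740 FPKM (0.47 ± 0.04, adjusted p = 3.19e-07). Idh3b (0.66), Idh2 (0.46), Idh3a (0.34), Fh1 (0.24) and Dlst (0.11) rose too, Dlst not with TPM scaling or quantile normalization. Mdh2 was at 616, 580 and 561 FPKM against 684, 665 and 633 FPKM (0.17), but with quantile normalization it was at −0.01 (adjusted p = 0.886). Idh3g did not pass (0.12, interval −0.02 to 0.26), and Ogdh was lower (−0.21).

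The carnitine shuttle held both directions at day 7. Cpt1a, with 423 to 719 reads in the NFIA-Tg libraries and 2467 to 2545 in WT, was at 23.6, 26.8 and 26.5 FPKM in WT and at 6, 6.34 and 5.86 FPKM in those labelled NFIA-Tg. The NFIA-Tg level was lower by 4.22-fold (−1.91 ± 0.05, adjusted p = 1.05e-11). Cpt1b, with 44 to 139 reads per library, was at 0.881, 0.71 and 0.753 FPKM in WT and at 1.75, 1.82 and 1.71 FPKM in those labelled NFIA-Tg (a ratio of means of 2.25). It was tested only because the latter libraries reached 1 FPKM, so its call is not read as a result. Cpt1b was below Cpt1a in each of these libraries. Slc25a20, the carrier, was at 77.5, 78.4 and 77.4 FPKM against 111, 107 and 109 FPKM (0.48 ± 0.04, adjusted p = 4.00e-07). Cpt2 was at 74.2, 73.6 and 68.1 FPKM and at 74, 74.5 and 66.2 FPKM, with overlapping groups (−0.01, interval −0.16 to 0.14).

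**Figure D4:**
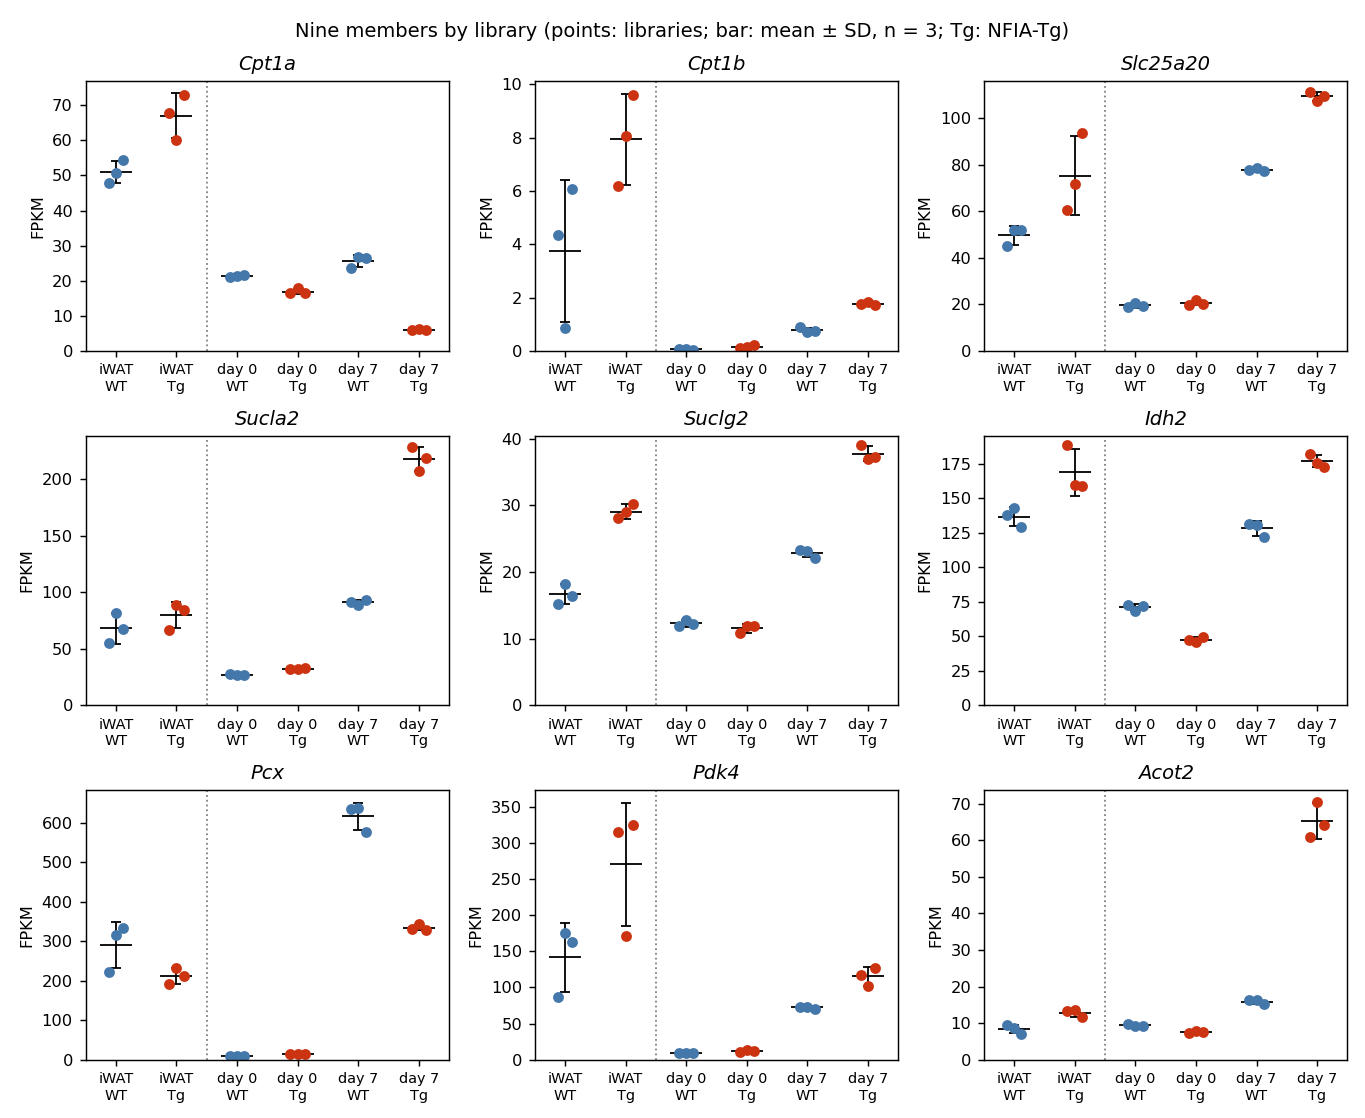
FPKM (y axis, linear from 0) of Cpt1a, Cpt1b, Slc25a20, Sucla2, Suclg2, Idh2, Pcx, Pdk4 and Acot2 in each of the 18 libraries by group (x axis), with points for libraries and bars for mean ± SD (n = 3); tissue and cultures are separated by the dotted line. Cpt1a is at 5.86 to 6.34 FPKM in the day 7 libraries labelled NFIA-Tg, while Acot2 is at 61 to 70.6 FPKM there.

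In β-oxidation at day 7, the largest rise was that of Acot2, from 16.3, 16.2 and 15.2 FPKM in WT to 61, 70.6 and 64 FPKM in those labelled NFIA-Tg (1.97 ± 0.05, adjusted p = 8.81e-12). Acot2 has a near-identical neighbour, Acot1, with which it can share reads, so its value is uncertain. Acot1 went from 3.53, 3.75 and 3.88 FPKM to 0.194, 0.365 and 0.0383 FPKM at the same day. Echs1 was at 162, 152 and 146 FPKM against 314, 307 and 292 FPKM (0.98 ± 0.05, adjusted p = 1.67e-09), and Eci2 at 98.9, 94.8 and 92.6 FPKM against 173, 153 and 155 FPKM (0.74 ± 0.05). Neither overlapped between the genotypes. Acadm (0.69), Hadhb (0.52), Decr1 (0.22) and Hadha (0.18) rose, Hadha not with TPM scaling. Eci1 (0.11) was called with overlapping groups, and in 12 of 19 alternatives. Acadl went the other way, from 307, 302 and 302 FPKM to 219, 229 and 229 FPKM (−0.43 ± 0.04, adjusted p = 5.91e-07), as did Acads, from 73.7, 72.6 and 66.8 FPKM to 57.8, 54.9 and 52 FPKM (−0.37), and Hadh (−0.23). The acyl-CoA dehydrogenases for the 4 chain lengths thus gave 1 rise (Acadm), 2 falls (Acadl and Acads) and no call for Acadvl (0.07, interval −0.03 to 0.16). The thiolase Acaa2 was not called (0.11, interval −0.05 to 0.27). Of the electron carriers Etfa rose (0.71), Etfdh fell by 0.16 on the log2 scale, and Etfb was not called (0.00, interval −0.13 to 0.13).

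Beside these changes, markers of other states moved between the day 7 groups. Thermogenic markers summed to 112 to 130 FPKM in WT and 1082 to 1133 FPKM in the cultures labelled NFIA-Tg, preadipocyte and fibroblast markers to 1038 to 1171 FPKM and 235 to 320 FPKM, and dividing-cell transcripts to 268 to 281 FPKM and 88.1 to 92.7 FPKM. Adipocyte markers summed to 24177 to 28537 FPKM and 25400.4 to 28977 FPKM, which overlap, but of 7 tested 1 was called higher and 3 lower (Adipoq −2.32, Retn −1.32 and Cidec −0.83). Markers of mitochondrial content summed to 1105 to 1168 FPKM and 1296 to 1327 FPKM, with 5 of 8 higher and 2 lower. The sums of thermogenic, preadipocyte, dividing-cell and mitochondrial content markers were separate between the groups, and their part in the members' changes was not tested. The rest of the pathways went in both directions. Of 25 further genes of pyruvate and the cycle 11 were higher and 13 lower, with Acly, the ATP-citrate lyase of fatty acid synthesis, at −2.19, the dicarboxylate carrier Slc25a10 at −1.50 and the kinase Pdk1 at 1.35. Of 21 further genes of fatty acid oxidation 9 were higher and 9 lower, with the acyl-CoA synthetases Acsl1 at −2.74 and Acsl4 at 1.88, the thioesterase Acot1 at −1.98 and the brain-type CPT1 gene Cpt1c at −1.70. Of 12 peroxisomal genes 7 were higher and 4 lower, with the thiolase Acaa1b at 1.98 and the transporter Abcd2 at −2.86. Among 10 regulators 4 were higher and 1 lower. Ppara rose by 3.11 and Sirt3 by 2.44, while Ppard, another receptor of the same family as Ppara, fell by 0.50. The other 2 of the 4, Ppargc1a and the oestrogen-related receptor gene Esrrg, reached 1 FPKM in the day 7 libraries labelled NFIA-Tg alone among the culture groups, so their calls are not read as results. Ppargc1a was at 0.501, 0.687 and 0.655 FPKM in WT and at 21, 24.8 and 27.5 FPKM in those libraries.

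The difference of the genotype effects between day 7 and day 0 was tested directly. It was positive for 23 members, against 29.5% of all genes tested, and negative for 10, against 42.6%, with a median of 0.39 beside −0.11 over all genes. Without Cpt1b it was positive for 22 of 37. The positive side held 10 of the 12 cycle genes and 5 of the 6 of pyruvate entry, and 5 of 13 in β-oxidation. Acot2 (2.25 ± 0.08, limma adjusted p = 1.28e-10), Idh2 (1.03 ± 0.06, adjusted p = 1.59e-08) and Sucla2 (1.00 ± 0.06, adjusted p = 1.25e-08) had the largest positive differences. Acot2 and Idh2 were lower at day 0 and higher at day 7 in those labelled NFIA-Tg, as were Idh3a, Dlat, Fh1, Hadhb and Etfa among the genes called at both days. Of these calls, that of Hadhb at day 0 held in 13 of 19 alternatives, that of Etfa at day 0 in 18 and that of Dlat at day 7 in 17. Cpt1a (−1.59 ± 0.07, adjusted p = 1.95e-09) and Pcx (−1.32 ± 0.07, adjusted p = 5.13e-09) had the largest negative ones. Pcx was higher at day 0 and lower at day 7, and so was Etfdh. These contrasts share the culture libraries with those above and are no separate evidence. The positive call of Cpt1b (0.51) rests on the scale: on recovered reads with voom it was −0.18 (adjusted p = 0.731).

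The genotype effect in iWAT was set against that in the day 7 cultures in a fit to both kinds of sample. It was higher in iWAT for 15 of 38 members, against 35.8% of all genes tested, and lower for 4, against 18.5%. The higher count is near the background and the lower count is below it, while median-of-ratios scaling gave 9 and 7. That scaling moves the median of all genes from 0.18 to 0.00. The largest difference was that of Cpt1a (2.30 ± 0.12, limma adjusted p = 4.62e-08), whose estimate was 0.39 in iWAT, short of the threshold there, and −1.91 at day 7. Acadl (1.31 ± 0.16, adjusted p = 2.70e-05), Pdha1 (0.90 ± 0.11, adjusted p = 3.79e-05), Cpt2 (0.89 ± 0.19, adjusted p = 0.00169) and Etfdh (0.78 ± 0.15, adjusted p = 0.00107) were also higher in iWAT. Acadl and Etfdh, as well as Ogdh and Hadh, were called higher in iWAT and lower at day 7. Acot2 (−1.40 ± 0.14, adjusted p = 6.46e-06), Sucla2 (−1.01 ± 0.19, adjusted p = 0.000725), Hadhb (−0.44) and Eci2 (−0.40) differed the other way, and the Hadhb call held in 13 of 24 alternatives. For 19 members, among them Pdhb (0.02, interval −0.31 to 0.36), Suclg2 (0.07, interval −0.16 to 0.30) and Idh3b (0.07, interval −0.23 to 0.37), the difference did not pass.

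Ratios between partner genes do not depend on a factor that scales a whole library. With 3 samples against 3, the exact permutation test cannot go below p = 0.1, so these are descriptions. Cpt1b to Cpt1a was 0.0374, 0.0265 and 0.0284 in WT at day 7 and 0.291, 0.287 and 0.292 in those labelled NFIA-Tg. In iWAT it was 0.0905, 0.0168 and 0.112 in WT and 0.0911, 0.134 and 0.131 in NFIA-Tg, which overlap. In FPKM, Cpt1b RNA thus stayed below Cpt1a RNA in every library. This rests on 2 to 17 Cpt1b reads per library at day 0, and in iWAT the unstated length limits the comparison.

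Suclg2 to Sucla2, the GTP-forming to the ATP-forming subunit of succinyl-CoA synthetase, moved in opposite directions in tissue and culture. In iWAT it was 0.278, 0.223 and 0.244 in WT and 0.420, 0.327 and 0.356 in NFIA-Tg, with the NFIA-Tg values above. At day 7 it was 0.254, 0.260 and 0.237 in WT and 0.171, 0.178 and 0.170 in those labelled NFIA-Tg, with the NFIA-Tg values below, as at day 0 (0.429 to 0.481 and 0.340 to 0.371). Pdk4 to Pdha1 overlapped in iWAT (1.13 to 1.99 in WT and 1.05 to 2.20 in NFIA-Tg) and was higher in those labelled NFIA-Tg at day 0 (0.118 to 0.132 and 0.202 to 0.242) and at day 7 (0.236 to 0.251 and 0.351 to 0.417). Idh3a to Idh3b, the catalytic to another subunit of isocitrate dehydrogenase, was lower in NFIA-Tg in iWAT and at both days, and at day 7 it was 1.35 to 1.52 in WT and 1.07 to 1.22 in NFIA-Tg. Against the remaining subunit it was not so: Idh3a to Idh3g overlapped in iWAT (0.689 to 0.731 and 0.475 to 0.741) and at day 7 (1.38 to 1.66 and 1.55 to 1.92), and was lower in NFIA-Tg at day 0 (0.481 to 0.526 and 0.439 to 0.461). Hadhb to Hadha was added after the values were seen: at day 7 it was 1.05, 1.06 and 1.08 in WT and 1.36, 1.35 and 1.34 in those labelled NFIA-Tg, while at day 0 it was lower in NFIA-Tg (0.611 to 0.651 and 0.477 to 0.524). In iWAT this ratio was also lower in NFIA-Tg (1.36 to 1.46 in WT and 1.18 to 1.29 in NFIA-Tg), opposite to day 7.

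**Figure D5:**
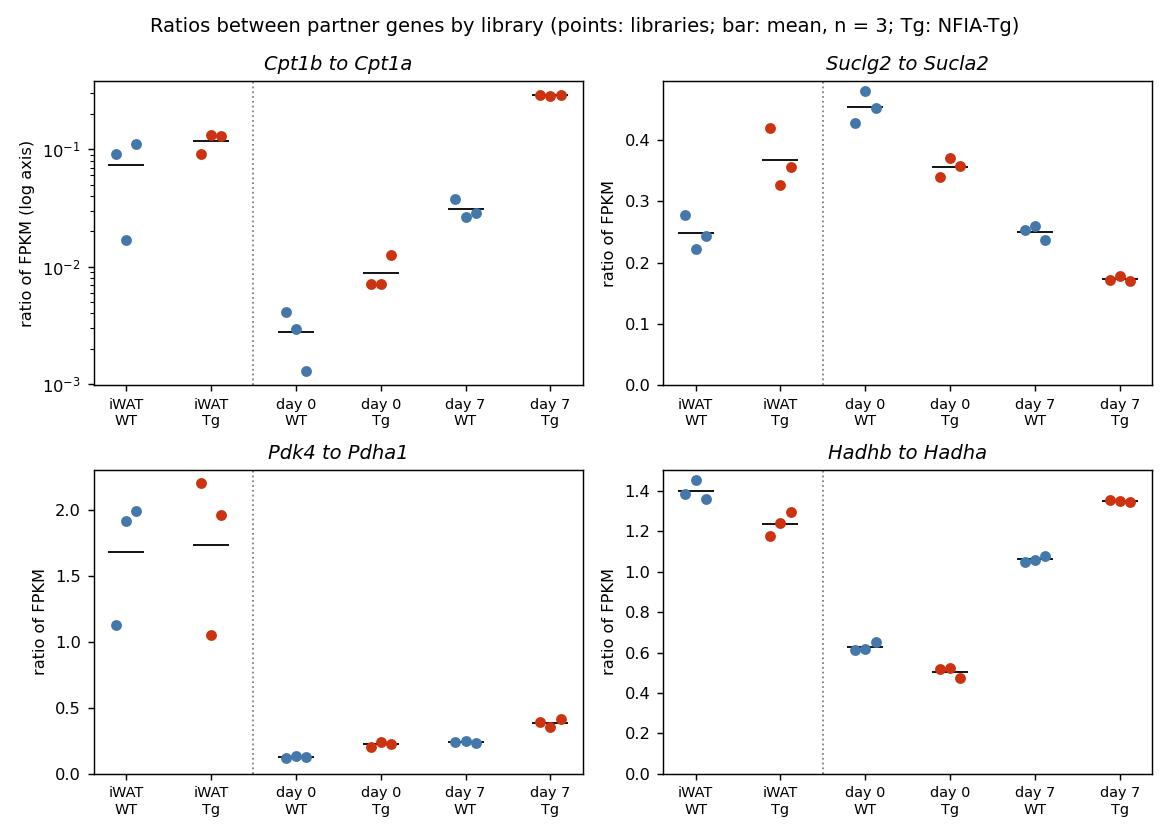
Ratios of FPKM (y axis, log scale for Cpt1b to Cpt1a and linear from 0 for the others) between partner genes in each of the 18 libraries by group (x axis), with points for libraries and bars for the mean (n = 3). The ratio of Suclg2 to Sucla2 is higher in NFIA-Tg in iWAT (0.327 to 0.420 against 0.223 to 0.278) and lower in the libraries labelled NFIA-Tg at day 7 (0.170 to 0.178 against 0.237 to 0.260).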

How the data were processed

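RNA-seq of polyadenylated RNA (TruSeq stranded kit, per the labels' protocols) was analysed from 18 tables of FPKM, 1 per library, deposited by the authors. STAR 2.7.8a, StringTie 2.1.1 and the build mm9 are named in the submitters' processing notes without their roles. The culture values came from STAR gene counts, per the file headers. The iWAT values did not reduce to whole reads, so tissue and cultures were made differently. The sources used here do not give the annotation, the strand setting or the treatment of multi-mapping reads. The length that the authors divided by in iWAT is not stated, which limits comparison of levels between genes there. The deposited length column spans introns in the iWAT tables and was used, with the culture FPKM, only to recover reads: 100% of culture values were whole within 0.01 reads, with 16772594 to 28625625 reads per library. Total FPKM was 444682 to 487844 per iWAT library. In iWAT, 180 repeated symbols (410 entries) were summed.

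Tests used limma 3.58.1 in R 4.3.3 on log2(FPKM + 1), with a mean-variance trend, for genes with at least 1 FPKM in at least 3 of the fitted samples. Benjamini-Hochberg adjustment ran over all genes tested (12396 in iWAT, 12553 in cultures, 13101 for iWAT against day 7), with calls at adjusted p under 0.05 and 95% intervals. The fits held 6, 12 and 12 samples with 4, 8 and 8 residual degrees of freedom. Ratios were tested by a two-sided exact permutation test. The tests were also run on simulated data in which few genes were changed, unlike the cultures, where most genes tested were called. The outcome is not given here, so it lends no support to the calls. Alternatives were pseudocounts of 0.1 and 0.5, no filter or 5 FPKM, median-of-ratios, TPM and quantile scaling, no trend, robust moderation, the highest entry per symbol, a replicate block, voom on recovered reads (cultures), other sets of samples in the fit, and each replicate left out. All 38 members are named. Per-library values go to the 4 largest called changes in either direction, the 2 most abundant members, Pdk4, Pcx, Cpt1a and Cpt1b, and of the other pathway genes up to 4 called are named. Some further values were added. The members, the gene lists and these rules were chosen with earlier results of these data known. Promoters are from RefSeq on GRCm38.p6, not the files' build, and are given for their letters alone. A withheld item is not reported here.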

Additional observations from a re-analysis of the deposited data

Results flagged for a closer look

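The genotype effect differed between day 0 and day 7 for 33 of 38 members by the interaction term in limma (Benjamini-Hochberg adjusted p under 0.05). Over all genes, 9051 of 12553 tested were called, 29.5% positive and 42.6% negative, so such a difference was common. The difference, day 7 minus day 0 on the log2 scale, was positive for 23: Acot2 (2.25), Idh2 (1.03), Sucla2 (1.00), Echs1 (0.87), Idh3a (0.85), Etfa (0.82), Suclg2 (0.78), Pdhb (0.66), Hadhb (0.62), Idh3b (0.57), Cpt1b (0.51), Cs (0.51), Dld (0.49), Pdha1 (0.49), Idh3g (0.48), Suclg1 (0.47), Eci2 (0.45), Slc25a20 (0.42), Fh1 (0.41), Pdk4 (0.36), Dlat (0.34), Mdh2 (0.27) and Decr1 (0.20). It was negative for 10: Cpt1a (−1.59), Pcx (−1.32), Etfb (−0.52), Cpt2 (−0.35), Etfdh (−0.35), Acads (−0.35), Hadh (−0.30), Acaa2 (−0.28), Ogdh (−0.25) and Acadl (−0.22). The 2 with the largest size, Acot2 and Cpt1a, lie on opposite sides, and the value of Acot2 is uncertain because of its near-identical neighbour Acot1. Cpt1b was tested only because the day 7 libraries labelled NFIA-Tg reached 1 FPKM, so its call is not read as a result. Without Cpt1b 22 of 37 were positive and 10 negative. At day 7 Nfia goes against the NFIA-Tg label, so these directions hold between labelled groups.

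The genotype effect also differed between iWAT and the day 7 cultures for 19 of 38 members by the same kind of test. Over all genes, 7120 of 13101 tested were called, 35.8% higher and 18.5% lower in iWAT. The member count is thus near the background. The difference, iWAT minus day 7, was positive for 15: Cpt1a (2.30), Acadl (1.31), Pdha1 (0.90), Cpt2 (0.89), Etfdh (0.78), Hadh (0.75), Acads (0.71), Eci1 (0.62), Ogdh (0.60), Acadvl (0.59), Acaa2 (0.49), Dlst (0.49), Idh3g (0.45), Mdh2 (0.37) and Fh1 (0.35). It was negative for 4: Acot2 (−1.40), Sucla2 (−1.01), Hadhb (−0.44) and Eci2 (−0.40). Both kinds of sample entered with their own tables, made differently by the authors, and only the within-kind genotype effects are compared.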

How the results depend on the processing

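Of 5380 pairs of a member and an alternative, 5175 stayed on the same side of the threshold, 142 lost a call, 61 gained one and 2 called in the reported fit changed sign. A further 64 pairs that were called in neither fit changed sign. The 2 were Mdh2 at day 7, which was −0.0074 with quantile normalization, and the interaction of Cpt1b, which was −0.18 with voom on recovered reads. In iWAT the 22 calls became 13 with no filter on low values and 34 (33 higher and 1 lower) with all 18 samples in 1 fit. With 1 iWAT replicate left out they ranged from 7 to 21 in all and among the higher, and from 0 to 1 among the lower, where Pcx was called without WT replicate 1 (−0.62, limma adjusted p = 0.0219). At day 7 the lower calls numbered 4 with median-of-ratios scaling. For iWAT against day 7 that scaling gave 9 higher and 7 lower. The cause was not tested. The median of all genes moved with quantile normalization from −0.17 to −0.02 at day 7 and from −0.11 to 0.03 for the interaction, and with TPM scaling from 0.09 to −0.06 for differentiation in WT and from 0.05 to −0.18 in NFIA-Tg. Calls held in every alternative for 21 of 24 members at day 0, 24 of 32 at day 7, 27 of 33 for the interaction and 12 of 19 for iWAT against day 7. Cpt1b could not be fitted where a filter left it out. In their deviations from group means, same-numbered replicates correlated by −0.11 to 0.16 over 21 pairs. This gave no clear sign that the numbers pair the samples, but it cannot exclude pairing. With the replicate block, 23 members were higher and 0 lower in iWAT, 14 and 11 at day 0, 25 and 7 at day 7, 23 and 10 for the interaction, 15 and 4 for iWAT against day 7, and 38 and 0 from day 0 to day 7 in WT, with 37 and 1 in NFIA-Tg. Depth limits Cpt1b, with 2 to 17 reads per library at day 0, and it is unknown in iWAT.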
